A study of Mus musculus with 12 samples.

Results

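Interferon-stimulated genes are the antiviral and antigen-presenting genes that a cell switches on when interferon binds its receptors. A list of 35 of them was followed in primary mouse hepatocytes exposed to TCDD, the best studied dioxin and a persistent ligand of the aryl hydrocarbon receptor (AHR). A gene was taken as measured where a probe set carried its symbol alone, and the brightest such probe set over all 12 arrays stood for it. By this rule 33 of the 35 genes were measured, among 18193 genes on the array. Isg15, the ubiquitin-like modifier, was covered only by a probe set shared with Gm9706, and Ifi44 had no listed probe set.

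RNA was measured on 12 Affymetrix arrays with 3 arrays in each of 4 groups, and the design text gives 1 array for each mouse. Human AHR hepatocytes exposed to 10 nM TCDD for 6 h were set against human AHR hepatocytes given the dimethyl sulfoxide (DMSO) vehicle, and wild type hepatocytes exposed to the same dose and time were set against wild type hepatocytes given vehicle. Human AHR mice carried the targeted Ahr allele B6.Cg-Ahrtm3.1Bra together with the transgenes named Tg (Alb-cre, Ttr-AHR)1Ghp, a Cre recombinase under the albumin promoter and a human AHR under the transthyretin promoter. Both promoters are active mainly in hepatocytes, so other liver cells in such a culture need not carry the human receptor. Wild type mice were labelled C57BL6/J, and neither age nor sex is given in the labels. All 4 groups shared 48 h of culture in serum-free medium that itself held 2.5% DMSO and 10 nM dexamethasone, a glucocorticoid, besides penicillin and streptomycin. The labels call the arrays biological replicates, and the small number of arrays limits the precision of every value.

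Type I interferons (interferon alpha and beta) bind IFNAR1 and IFNAR2, and the kinases JAK1 and TYK2 then phosphorylate STAT2. With IRF9 it takes part in the complex ISGF3, which binds interferon-stimulated response elements in the promoters of target genes. Interferon gamma acts through IFNGR1 and IFNGR2, and its target promoters carry gamma-activated sites. In the liver these genes are best known for restricting hepatitis viruses, and hepatocytes express many of them without infection. AHR signalling is known in mouse cells to limit type I interferon production through its target Tiparp, an ADP-ribosyltransferase.

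Many promoters of the group share a sequence element. RefSeq (build GRCm38.p6) gave a window of 250 bases upstream of the annotated start for 27 of the 35 genes. It listed no window for Mx1, Mx2, Oas2, Zbp1, Usp18, Parp9, Parp14 and Iigp1. The response element was searched on both strands as GAAA, any 2 bases and GAAA, and occurred for 13 of the 27 genes (48.1%), against 3.46% of all 27025 genes with a window. A gene was counted when any of its windows held the match, and Ifit2, Irf1, Irf9 and Gbp3 had 2 windows each. These 13 were Ifit1, Ifit3, Rsad2, Bst2, Oas1a, Oas3, Isg15, Stat2, Gbp2, Gbp3, Igtp, Irgm1 and Cxcl10. The gamma-activated site was searched as TTCNNNGAA on both strands and occurred for 6 of the 27 genes (22.2%), against 8.13% of all genes. In Bst2 a response element overlapped a gamma-activated site. The core of the AHR binding element, searched as GCGTG on both strands, occurred for 9 of the 27 genes (33.3%), against 30.9% of all genes. A letter match describes the window and is not a measured binding site. The 5 windows below belong to genes whose array values follow, and they are printed because they hold the element through which interferon acts. Each reads 5′ to 3′ in the direction of the gene, with the response element in capitals.
Rsad2: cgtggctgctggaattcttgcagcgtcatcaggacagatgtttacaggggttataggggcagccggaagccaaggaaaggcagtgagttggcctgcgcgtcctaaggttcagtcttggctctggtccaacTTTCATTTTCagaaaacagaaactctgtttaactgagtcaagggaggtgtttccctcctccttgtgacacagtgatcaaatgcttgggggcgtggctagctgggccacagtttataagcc
Oas1a: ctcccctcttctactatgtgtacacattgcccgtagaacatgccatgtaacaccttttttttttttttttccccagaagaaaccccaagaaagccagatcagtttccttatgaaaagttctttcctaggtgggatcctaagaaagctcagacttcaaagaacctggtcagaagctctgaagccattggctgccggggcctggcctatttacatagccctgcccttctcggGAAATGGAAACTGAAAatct
Oas3: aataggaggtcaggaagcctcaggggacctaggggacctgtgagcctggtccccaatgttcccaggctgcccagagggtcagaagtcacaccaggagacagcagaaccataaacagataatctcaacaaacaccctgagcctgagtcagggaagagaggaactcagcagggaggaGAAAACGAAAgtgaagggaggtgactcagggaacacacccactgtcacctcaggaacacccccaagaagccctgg
Igtp: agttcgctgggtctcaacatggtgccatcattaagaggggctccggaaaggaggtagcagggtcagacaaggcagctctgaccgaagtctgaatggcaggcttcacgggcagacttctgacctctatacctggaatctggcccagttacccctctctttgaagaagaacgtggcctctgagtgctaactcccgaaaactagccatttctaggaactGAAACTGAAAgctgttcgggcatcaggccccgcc
Cxcl10: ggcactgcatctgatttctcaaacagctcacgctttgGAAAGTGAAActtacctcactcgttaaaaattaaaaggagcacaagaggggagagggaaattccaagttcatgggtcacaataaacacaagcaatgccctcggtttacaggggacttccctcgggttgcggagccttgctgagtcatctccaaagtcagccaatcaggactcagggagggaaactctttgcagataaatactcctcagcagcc
The windows lie at chr12:26456453-26456702 on the minus strand for Rsad2, at chr5:120907526-120907775 on the minus strand for Oas1a and at chr5:120777660-120777909 on the minus strand for Oas3. Those of Igtp and Cxcl10 lie at chr11:58199306-58199555 on the plus strand and at chr5:92348890-92349139 on the minus strand. Counted back from the start, the element began at base -120 in Rsad2, -75 in Oas3, -34 in Igtp and -213 in Cxcl10. Oas1a held overlapping copies that began at bases -20 and -14. In Rsad2 the match was on the opposite strand, so the capitals show its reverse complement. The Rsad2 and Cxcl10 windows also held the core of the AHR element, and the Oas1a and Igtp windows held a gamma-activated site.

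Known AHR targets marked the treatment. Tiparp stood at 3538, 3609 and 3479 in human AHR TCDD arrays, against 1327, 1403 and 1342 in human AHR vehicle arrays, and at 2575, 3324 and 2534 in wild type TCDD arrays, against 1402, 911 and 1098 in wild type vehicle arrays. All values given here are rescaled array signals, and replicates are given in the order 1, 2 and 3. The log2 change of Tiparp was 1.37 in human AHR (limma adjusted p = 0.00537) and 1.30 in wild type (limma adjusted p = 0.0192), so it rose in both. Cyp1a1, the classical TCDD-induced cytochrome, read 6624, 4004 and 6939 in human AHR TCDD arrays, against 81.9, 63.0 and 60.5 in vehicle arrays. In wild type it read 125, 2518 and 64.9 under TCDD, against 25.3, 24 and 18.5 under vehicle, so the wild type TCDD arrays were far apart. The log2 change of Cyp1a1 was 6.09 in human AHR (limma adjusted p = 0.0424). In wild type it was 2.995 (limma unadjusted p = 0.00436, adjusted p = 0.966). This known target therefore did not pass the test in wild type, although its groups did not overlap. Both wild type replicate 2 arrays also stood apart in Xist, which silences an X chromosome in female cells, at 2952 under TCDD and 3085 under vehicle, while no other array exceeded 29.3. The Y-linked gene Eif2s3y stood at 0.420 in the TCDD array and 4.70 in the vehicle array of that number, and at 453 or more elsewhere. Same-numbered TCDD and vehicle arrays thus shared this feature, and the labels do not say whether arrays of one number came from one animal.

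No interferon-stimulated gene changed by the test in either genotype. The test was limma on log2 of the rescaled signal plus 16, two-sided, adjusted over all 18193 genes, with a threshold of 0.05. In human AHR hepatocytes 0 of 33 genes passed, against 0.022% of all genes, and the smallest adjusted p among them was 1. In wild type hepatocytes 0 of 33 passed, against 0.0055% of all genes, and the smallest adjusted p was 0.966. SAM, the permutation method the authors name, called 0 of the 33 in each genotype over the 20 relabellings of 6 arrays. Over all 18193 genes SAM called 7 in human AHR and 0 in wild type, so its wild type result says nothing particular about the list. What the arrays did show was small shifts, mostly in one direction. In human AHR hepatocytes 28 of 33 genes had a log2 change below 0 under TCDD, where 53.1% of all genes did, with a median of -0.18 against -0.01 over all genes. In wild type hepatocytes 31 of 33 lay below 0, where 44.3% of all genes did, with a median of -0.30 against 0.03 over all genes. Only the wild type TCDD arrays were deposited at a trimmed mean of 500 rather than 150, before all were rescaled. Any effect of that processing cannot be told apart from TCDD in wild type, or from genotype under TCDD. In bulk RNA, fewer cells of a type and less RNA per cell cannot be told apart. The wild type shift rested on replicate 3 of the TCDD arrays: without it 12 of 33 genes lay below 0 and the median was 0.03. The human AHR median ran from -0.24 to -0.12 when each array was left out in turn.

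**Figure D1:**
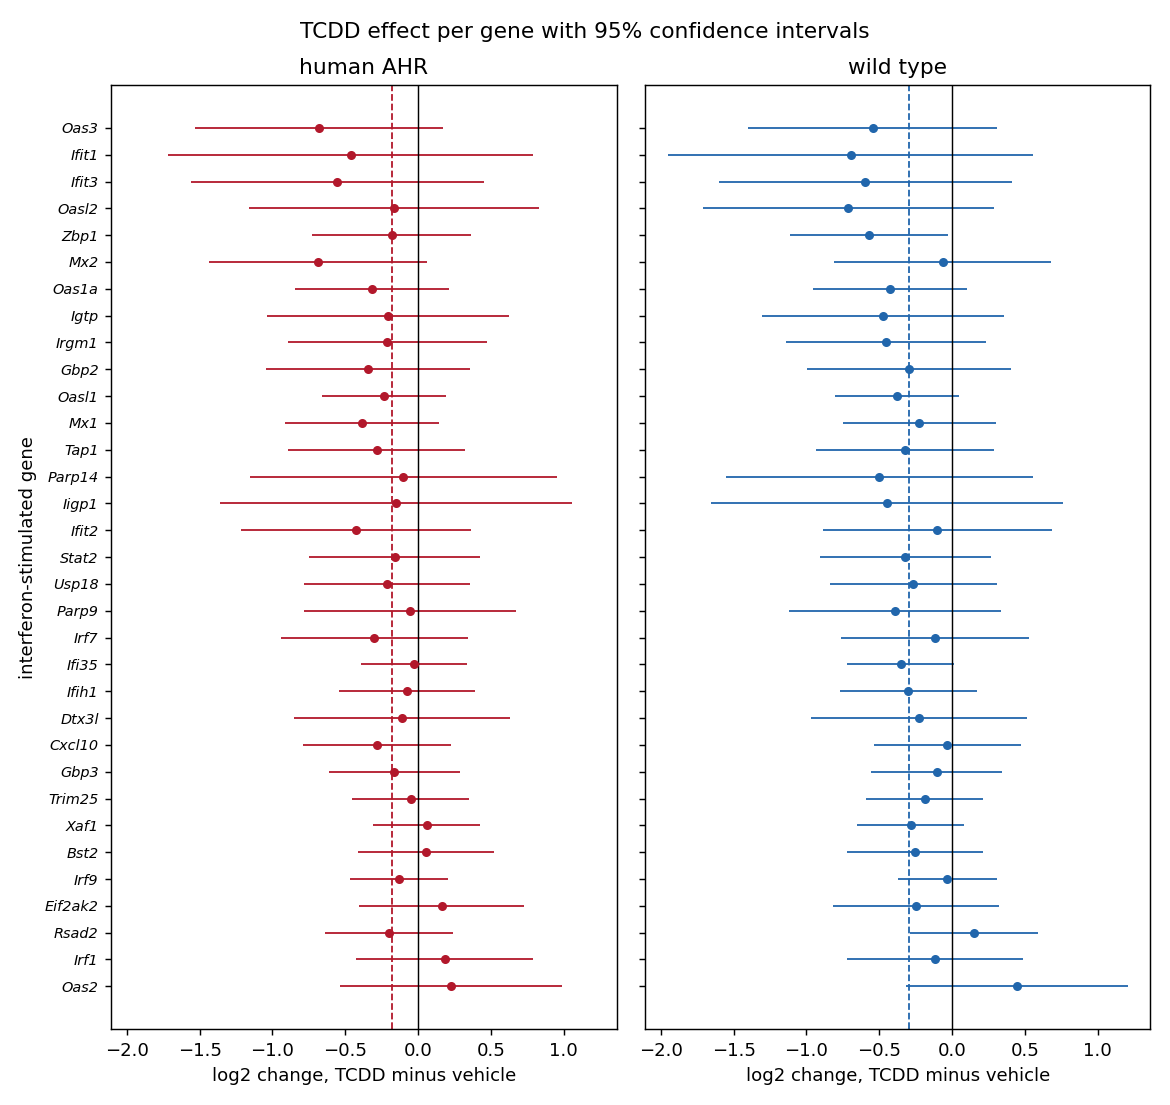
Log2 change under TCDD against vehicle for each of the 33 measured interferon-stimulated genes, with human AHR in the left panel and wild type in the right. Bars are 95% confidence intervals of the limma fit and dashed lines mark the medians. Most points lie below 0, with medians of -0.18 in human AHR and -0.30 in wild type, and no gene passed the adjusted threshold.

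By unadjusted p under 0.05, 0 of 33 genes were lower in human AHR TCDD arrays (1.48% of all genes) and 0 were higher (1.42%). In wild type 1 gene was lower, Zbp1 (1.19% of all genes), and 0 were higher (3%). That fit shares 1 estimate of the spread over all 4 groups. Fitted to the human AHR arrays only, 4 of 33 were lower and 0 higher. Fitted to the wild type arrays only, 0 were lower and 0 higher. The share of all genes is not given here for those separate fits. The 3 TCDD arrays lay wholly below the 3 vehicle arrays for 4 genes in human AHR hepatocytes, Ifit1, Ifit2, Gbp2 and Tap1, which is 12.1% of the group against 3.78% of all genes. In wild type this held for 1 gene, Xaf1, against 2.82% of all genes. In neither genotype did a gene of the group lie wholly above, against 3.34% of all genes in human AHR and 6.17% in wild type. The range of log2 changes in human AHR hepatocytes ran from -0.69 in Mx2 to 0.23 in Oas2. In wild type it ran from -0.71 in Oasl2 to 0.44 in Oas2.

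Averaged over both genotypes, 31 of 33 genes lay below 0 under TCDD, against 48.1% of all genes, with a median of -0.24. None passed the adjusted test, for which 0.022% of all genes were called, and the smallest adjusted p was 0.997. At an unadjusted p under 0.05, 2 genes were lower, Oas3 and Oasl1, against 1.38% of all genes, and 0 were higher, against 2.17%. The 2 genes above 0 were Oas2 and Irf1. Ifit1 and Oasl1 were lower in TCDD than in vehicle arrays in all 6 same-numbered pairs, which is 6.06% of the group against 1.96% of all genes, and 0 genes were higher in all 6, against 2.19%. Without wild type TCDD replicate 3, 26 of 33 genes lay below 0 and the average median was -0.08.

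The antiviral effectors act on viruses directly. Of the 9 measured, 7 lay below 0 under TCDD in human AHR hepatocytes (median -0.39) and 8 in wild type (median -0.25). Rsad2, which encodes viperin, an enzyme that makes a chain-terminating nucleotide, read 4931, 6890.1 and 5270.0 in human AHR TCDD arrays, against 5013, 7803 and 6939.8 in vehicle arrays. In wild type Rsad2 read 5858, 5538 and 6816 under TCDD, against 6601, 5813 and 4227 under vehicle. The groups overlapped in both genotypes, and the wild type TCDD array that was lowest for most genes was the highest of its group here. The log2 change was -0.20 (SE 0.20) in human AHR and 0.15 (SE 0.20) in wild type.

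Ifi35, an interferon-induced leucine zipper protein, read 4211, 3596 and 3226 under TCDD in human AHR hepatocytes, against 3822, 3964 and 3412 under vehicle. Its wild type signals were 3136, 3735 and 2259 under TCDD, against 3557, 3899 and 3994 under vehicle, a log2 change of -0.35 (SE 0.17, unadjusted p = 0.0576, limma adjusted p = 0.966). Replicates 1 and 3 of the wild type TCDD arrays lay below all wild type vehicle arrays, and replicate 2 did not. Xaf1, which binds the apoptosis inhibitor XIAP, read 1194, 1008 and 829 in human AHR TCDD arrays, against 1135, 983 and 788 in vehicle arrays. In wild type Xaf1 read 1169, 1186 and 889 under TCDD, against 1419, 1275 and 1239 under vehicle. All wild type TCDD arrays were below all wild type vehicle arrays, and the log2 change of -0.28 (SE 0.17) did not pass (limma adjusted p = 0.966). In human AHR hepatocytes each TCDD array was above its same-numbered vehicle array. A second, dim Xaf1 probe set did not share the wild type order, at 29.7, 27.3 and 32.3 under TCDD, against 32.6, 5.1 and 21.1 under vehicle.

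The Ifit proteins bind viral RNA and block its translation. Ifit1 read 376, 328 and 258 in human AHR TCDD arrays, against 385, 499 and 452 in vehicle arrays, and 513, 802 and 91.0 in wild type TCDD arrays, against 655, 951 and 287 in wild type vehicle arrays. Its log2 change was -0.46 (SE 0.58) in human AHR and -0.69 (SE 0.58) in wild type, and the human AHR groups did not overlap, while the SE, shared by all groups, exceeded that change. Ifit2 read 24.1, 28.3 and 31.7 in human AHR TCDD arrays, against 36.5, 32.3 and 65 in vehicle arrays, without overlap. In wild type Ifit2 overlapped widely, at 53.1, 81.5 and 16.6 under TCDD, against 43.2, 74.5 and 34.4 under vehicle. Ifit3 had log2 changes of -0.56 in human AHR and -0.60 in wild type (SE 0.47 each).

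Mx1 and Mx2 encode dynamin-like GTPases that trap viral particles, and most inbred laboratory mice are known to carry defective copies of both. Mx2 read 80, 168 and 72.9 in human AHR TCDD arrays, against 141, 215 and 164 in vehicle arrays, and 184, 121 and 82.8 in wild type TCDD arrays, against 165, 169 and 75.9 in vehicle arrays. Each human AHR TCDD array was below its same-numbered vehicle array, but replicate 2 lay inside the vehicle range, and the log2 change of -0.69 (SE 0.35, unadjusted p = 0.0682) had an adjusted p of 1 in limma. Mx1 was dim throughout, at 0.80, 0.600 and 1.70 in human AHR TCDD arrays, against 1.5, 12.8 and 5.80 in vehicle arrays, and 7.11, 17.6 and 1.35 in wild type TCDD arrays, against 12.7, 16.9 and 6.80 in vehicle arrays. These signals are about the size of the offset of 16 or smaller. The offset shrinks log2 changes there, so the size of any Mx1 change cannot be judged from the -0.39 in human AHR. Bst2, which encodes tetherin, the protein that holds budding virus at the membrane, ranged from 1255 to 2502 over all arrays, with log2 changes of 0.06 in human AHR and -0.25 in wild type (SE 0.22 each).

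The 2-5A synthetase family senses double-stranded RNA, and its catalytically active members make the messenger that activates RNase L. Of the 5 genes of the family, 4 lay below 0 in each genotype, with medians of -0.23 in human AHR and -0.43 in wild type. Oas1a read 238, 182 and 229 in human AHR TCDD arrays, against 226, 251 and 352 in vehicle arrays, and 231, 277 and 138 in wild type TCDD arrays, against 227, 285 and 357 in vehicle arrays. The groups overlapped in both genotypes, with the highest vehicle value in replicate 3 each time. Averaged over genotypes the Oas1a log2 change was -0.37 (SE 0.17, unadjusted p = 0.0505, limma adjusted p = 0.997). Oas3 read 57.2, 13.1 and 64.4 in human AHR TCDD arrays, against 83.0, 62.0 and 75.2 in vehicle arrays, and 32.6, 41.2 and 7.77 in wild type TCDD arrays, against 30.8, 43.7 and 57.6 in vehicle arrays. In each TCDD group a single array lay far below the other two, replicate 2 in human AHR and replicate 3 in wild type. Averaged over genotypes the Oas3 log2 change was -0.61 (SE 0.28, unadjusted p = 0.0471, limma adjusted p = 0.997).

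Oasl1, known in mouse to restrain translation of Irf7, was lower in all 6 pairs. It read 627, 491 and 653 in human AHR TCDD arrays, against 723, 624 and 730.2 in vehicle arrays, and 722, 481 and 531 in wild type TCDD arrays, against 772, 561 and 953 in vehicle arrays. The groups overlapped in both genotypes, although each TCDD array was below the vehicle array of its number. The average log2 change of Oasl1 was -0.30 (SE 0.14, unadjusted p = 0.0482, limma adjusted p = 0.997), with -0.23 in human AHR and -0.38 in wild type. Oasl2, a catalytically active relative in mouse, ranged from 29.0 to 237 and had log2 changes of -0.16 in human AHR and -0.71 in wild type (SE 0.46 each). Oas2 was dim, from 5.90 to 60.7, and was the only gene of the family above 0 in both genotypes.

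**Figure D2:**
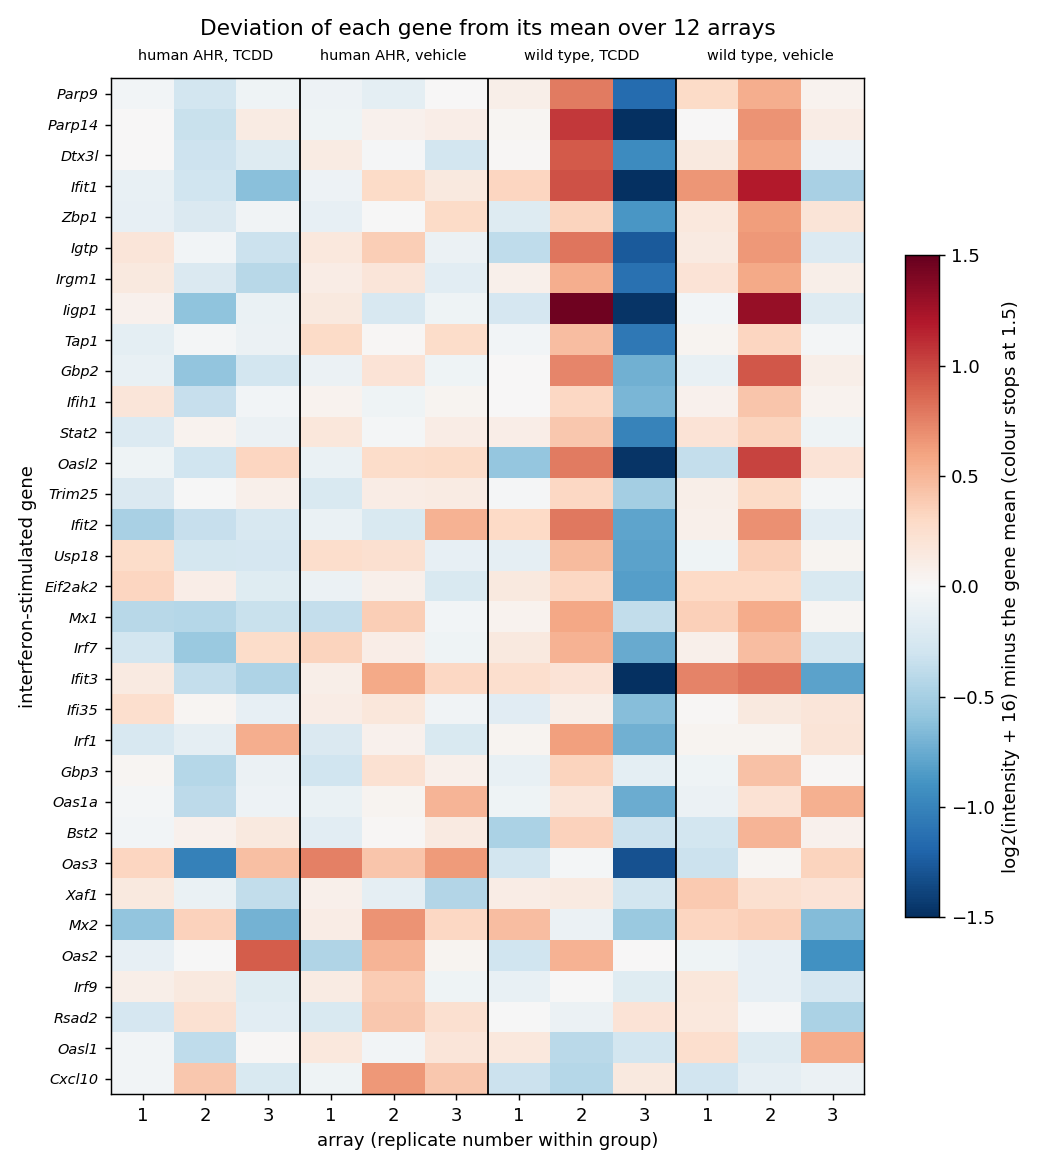
Log2 difference of each measured interferon-stimulated gene from its own mean over the 12 arrays, genes in rows ordered by their likeness to the rest of the list and arrays in columns, in the order human AHR TCDD, human AHR vehicle, wild type TCDD and wild type vehicle. The wild type TCDD replicate 3 column is the lowest of 12 for 23 of the 33 genes, while both wild type replicate 2 columns are high.

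The sensors recognise viral RNA and DNA in the cell. Ifih1 (MDA5) read 966, 668 and 828 in human AHR TCDD arrays, against 883, 813 and 873 in vehicle arrays, and 851, 1059.7 and 524 in wild type TCDD arrays, against 889.6, 1143 and 879.6 in vehicle arrays. Its log2 changes were -0.08 in human AHR and -0.30 in wild type (SE 0.22 each), both smaller than 2 SE. Eif2ak2, the kinase PKR, read 329.7, 281 and 228 in human AHR TCDD arrays, against 244, 275 and 220.2 in vehicle arrays. It was higher than the same-numbered vehicle array in each case, unlike in wild type, where it read 290.4, 326 and 139 under TCDD and 324, 325 and 219 under vehicle. Its 2 other probe sets did not share that human AHR order: one read 267, 188 and 221 under TCDD, against 284, 300.4 and 288 under vehicle.

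Zbp1, a sensor of Z-form nucleic acid that starts necroptosis, had the smallest unadjusted p of the group in wild type. It read 176, 163 and 185 in human AHR TCDD arrays, against 176, 191 and 238 in vehicle arrays, and 166, 246 and 97.7 in wild type TCDD arrays, against 216, 306 and 222 in vehicle arrays. Each wild type TCDD array was below its same-numbered vehicle array, but the groups overlapped through replicate 2. The Zbp1 log2 change was -0.57 (SE 0.25, unadjusted p = 0.0417, limma adjusted p = 0.966) in wild type and -0.18 (SE 0.25) in human AHR. A second, dimmer Zbp1 probe set did not share that wild type order. It read 41.1, 66.0 and 6.6 under TCDD, against 30.4, 21.6 and 26.9 under vehicle, so replicates 1 and 2 were higher under TCDD.

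The ISG15 pathway attaches and removes the Isg15 modifier. Usp18, which removes it and also dampens receptor signalling, read 3068, 2106 and 2119 in human AHR TCDD arrays, against 3049, 3007 and 2329.7 in vehicle arrays. In wild type Usp18 read 2304, 3539 and 1441 under TCDD, against 2416, 3244 and 2619 under vehicle, with the highest and the lowest of the 12 arrays inside the TCDD group. Trim25, a ubiquitin ligase of the RIG-I pathway, read 1091, 1256 and 1334 in human AHR TCDD arrays, against 1081, 1365 and 1379.6 in vehicle arrays, and 1249, 1576 and 887 in wild type TCDD arrays, against 1350.2, 1553 and 1235 in vehicle arrays. Both genes lay below 0 in both genotypes by at most 0.27 on the log2 scale, with an SE of 0.27 for Usp18 and 0.19 for Trim25.

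The transcription factors include parts of ISGF3. Of Irf1, Irf7, Irf9 and Stat2, 3 lay below 0 in human AHR (median -0.15) and 4 in wild type (median -0.12). Irf7, which drives the later wave of interferon genes, read 600.3, 492 and 884 in human AHR TCDD arrays, against 920.5, 779 and 693 in vehicle arrays, and 808, 1054 and 426 in wild type TCDD arrays, against 765, 1013 and 602 in vehicle arrays. Irf9, the DNA-binding subunit of ISGF3, read 404, 420.4 and 333 in human AHR TCDD arrays, against 416, 500.4 and 361 in vehicle arrays, and 349, 379 and 333 in wild type TCDD arrays, against 428, 347 and 317 in vehicle arrays. Irf9 was steady across the wild type arrays in which most of the group swung widely. Stat2 ranged from 131 to 372, with log2 changes of -0.16 in human AHR and -0.32 in wild type (SE 0.27 each). Irf1 ranged from 185 to 490 and lay at 0.18 in human AHR and -0.12 in wild type (SE 0.28 each).

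Parp9 and Dtx3l form a complex that ubiquitinates histones and viral proteins, and Parp14 is a mono-ADP-ribosyltransferase. Parp9 read 689, 580.0 and 676 in human AHR TCDD arrays, against 670.4, 638 and 710.1 in vehicle arrays, and 751, 1222 and 310.4 in wild type TCDD arrays, against 865, 1041 and 737 in vehicle arrays. Parp14 read 587, 458 and 635 in human AHR TCDD arrays, against 558, 609.5 and 624 in vehicle arrays, and 597, 1228 and 158 in wild type TCDD arrays, against 585, 942 and 632 in vehicle arrays. Both were nearly level in human AHR hepatocytes, whereas the 3 wild type TCDD arrays spanned the whole range of the 12. Dtx3l ranged from 199 to 768 and had log2 changes of -0.11 in human AHR and -0.23 in wild type (SE 0.34 each).

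The GTPases attack the membranes around intracellular pathogens, and all 5 lay below 0 in both genotypes, with medians of -0.21 in human AHR and -0.45 in wild type. Iigp1 (Irga6) read 1143, 715 and 1021 in human AHR TCDD arrays, against 1204, 917 and 1041 in vehicle arrays, and 911, 3017 and 383 in wild type TCDD arrays, against 1063, 2716 and 949 in vehicle arrays. Igtp read 1001, 858 and 699 in human AHR TCDD arrays, against 986, 1143 and 825 in vehicle arrays, and 675, 1543 and 358 in wild type TCDD arrays, against 965, 1389 and 764 in vehicle arrays. In both genes wild type replicate 2 was high under TCDD and vehicle alike. Gbp2 read 312, 220.3 and 278 in human AHR TCDD arrays, against 318, 393 and 325 in vehicle arrays, without overlap. Its log2 change there was -0.34 (SE 0.32), and a second Gbp2 probe set overlapped, at 243, 239.6 and 301 under TCDD against 255, 323 and 288 under vehicle. Irgm1 and Gbp3 lay at -0.21 and -0.16 in human AHR and at -0.45 and -0.11 in wild type.

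Cxcl10 attracts T cells and Tap1 carries peptides to class I molecules. Cxcl10 read 109, 155 and 93.5 in human AHR TCDD arrays, against 106, 186 and 154 in vehicle arrays, and 86.8, 79.7 and 126 in wild type TCDD arrays, against 89.0, 101.0 and 105.4 in vehicle arrays. Tap1 read 299.6, 325 and 312 in human AHR TCDD arrays, against 412, 338 and 406 in vehicle arrays, and 324, 467 and 150.1 in wild type TCDD arrays, against 344, 419 and 326 in vehicle arrays. All human AHR TCDD arrays were below all human AHR vehicle arrays for Tap1, while the log2 change of -0.28 (SE 0.28) had an adjusted p of 1 in limma. A second, dim Tap1 probe set did not share that order, at 30.0, 28.7 and 15.8 under TCDD, against 6.6, 10.4 and 23.5 under vehicle. The remaining Tap1 probe sets read at most 11.3. Cxcl10 overlapped in both genotypes, with log2 changes of -0.28 in human AHR and -0.03 in wild type (SE 0.24 each).

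**Figure D3:**
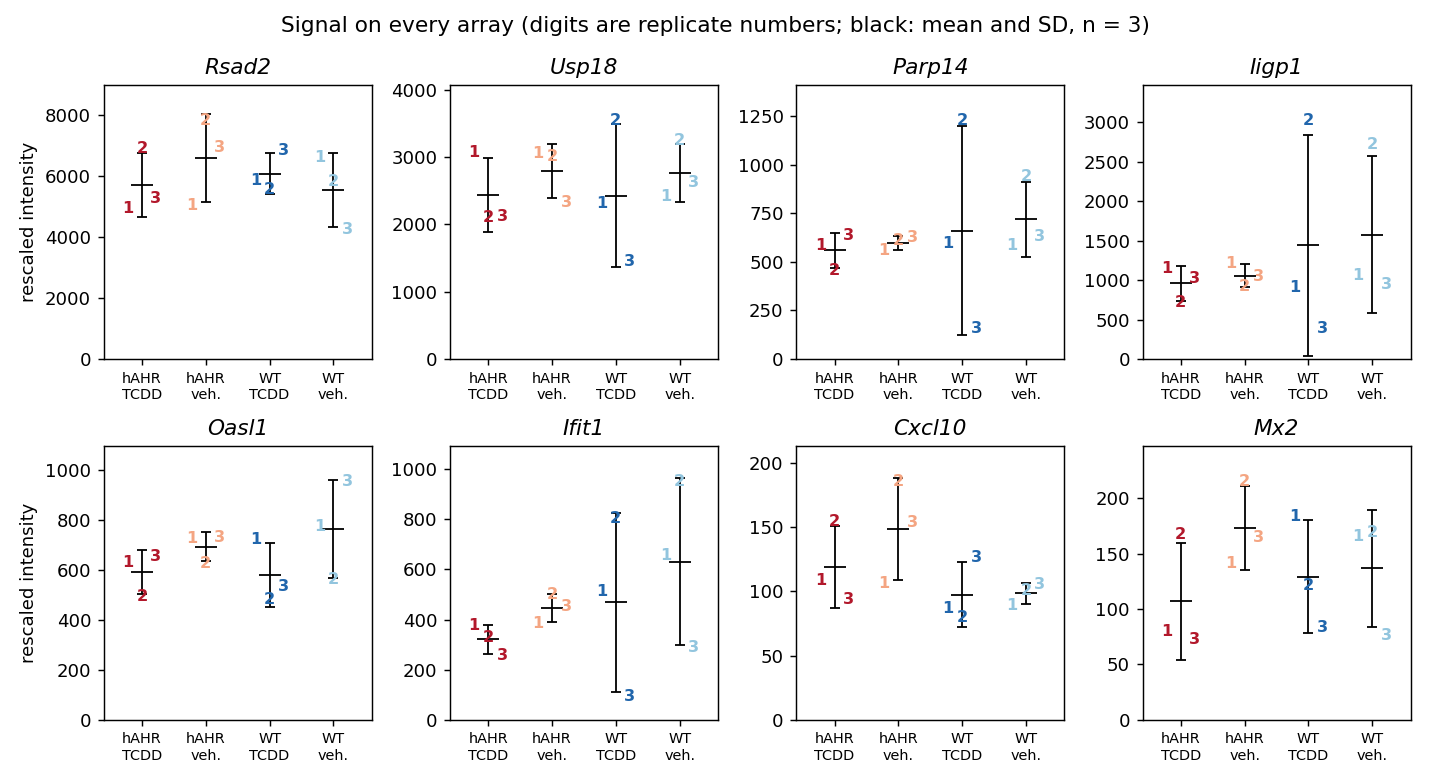
Rescaled intensity of single arrays for 8 interferon-stimulated genes, with human AHR TCDD, human AHR vehicle, wild type TCDD and wild type vehicle from left to right. Digits are replicate numbers and black marks are the mean and SD of 3 arrays; in Parp14 the wild type TCDD digits stand at 597, 1228 and 158.

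The TCDD effects of the genotypes were then compared with each other. For the difference, human AHR minus wild type, 0 of 33 genes passed the adjusted test, against 0% of all genes, and the smallest adjusted p was 0.998. By unadjusted p under 0.05, 0 genes of the group were higher (0.934% of all genes) or lower (2.21%). Below 0 lay 11 of 33, against 55.9% of all genes, and the median was 0.14 against -0.04 over all genes. The extremes were Mx2 at -0.62 (95% confidence interval -1.68 to 0.43) and Oasl2 at 0.55 (-0.86 to 1.96). Xaf1 and Ifi35 had the smallest unadjusted p with differences of 0.34 (-0.18 to 0.86) and 0.33 (-0.19 to 0.84). The median difference became 0.38 without wild type TCDD replicate 2 and -0.23 without wild type TCDD replicate 3, so its sign depended on single arrays.

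Human AHR hepatocytes were next set against wild type hepatocytes within each treatment. Under vehicle 0 of 33 genes passed, against 0.0055% of all genes, with 23 of 33 below 0 (44.9% of all genes) and a median of -0.11 (0.03 over all genes). Xaf1 was lower at an unadjusted p of 0.0216, with a log2 difference of -0.44 (SE 0.17, limma adjusted p = 0.965). The unadjusted threshold of 0.05 was passed by 1.6% of all genes in that direction, and in the other by 0 of 33 against 2.63% of all genes. The 3 human AHR vehicle arrays lay wholly below the wild type ones for Xaf1 and Parp9, against 4.36% of all genes, and wholly above for Oas3 and Cxcl10, against 6.17%. Cxcl10 differed by 0.50 (SE 0.24, unadjusted p = 0.054) and Oas3 by 0.59 (SE 0.40, unadjusted p = 0.158), each with a limma adjusted p of 0.965.

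Under TCDD 0 of 33 genes passed, against 0% of all genes, with 12 of 33 below 0 (52.4% of all genes) and a median of 0.06 (-0.01 over all genes). By unadjusted p under 0.05, 0 were higher (1.61% of all genes) and 0 lower (2.5%). In 0 genes did the 3 human AHR arrays lie wholly above the wild type ones, against 3.23% of all genes, or wholly below, against 4.86%. The smallest unadjusted p belonged to Mx1, at -0.48 (SE 0.24), then Ifi35 at 0.29 (SE 0.17) and Ifit2 at -0.46 (SE 0.36), and each had a limma adjusted p of 1. The median became -0.27 without wild type TCDD replicate 3 and 0.37 without wild type TCDD replicate 2.

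In wild type hepatocytes the spread between TCDD arrays exceeded the shift between TCDD and vehicle. Each array was summarised by the median, over the 33 genes, of the log2 difference from the gene's own mean over the 12 arrays. This median was -0.04, -0.27 and -0.09 in human AHR TCDD arrays, against -0.06, 0.11 and 0.07 in human AHR vehicle arrays. It was 0.00, 0.41 and -0.75 in wild type TCDD arrays, against 0.07, 0.42 and 0.02 in wild type vehicle arrays. Wild type TCDD replicate 3 was thus the lowest array and the wild type replicate 2 arrays were the highest. Wild type TCDD replicate 3 was the lowest of the 12 for 23 of 33 genes, against 14.9% of all genes. Wild type TCDD replicate 2 was the highest of the 12 for 13 genes (11.5% of all genes) and wild type vehicle replicate 2 for 9 (8.49% of all genes).

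**Figure D4:**
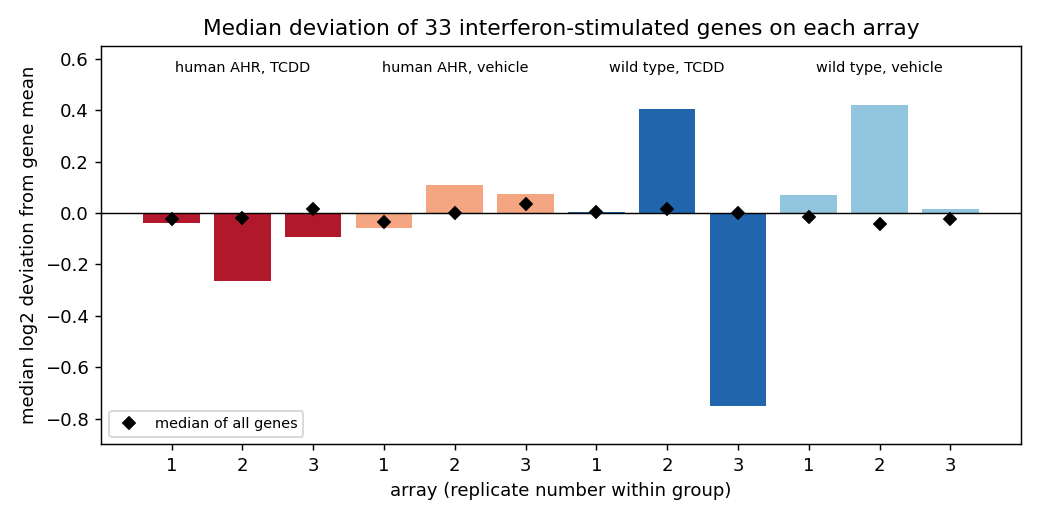
Median over the 33 interferon-stimulated genes of the log2 difference from each gene's 12-array mean, 1 bar for each array, with diamonds for the median of all genes. The lowest bar is wild type TCDD replicate 3 at -0.75, and wild type replicate 2 is high under TCDD and vehicle alike, at 0.41 and 0.42.

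The median within-group SD of the 33 genes on the log2 scale was 0.25 in human AHR TCDD arrays, 0.20 in human AHR vehicle arrays, 0.64 in wild type TCDD arrays and 0.31 in wild type vehicle arrays. Over all genes the same medians were 0.21, 0.21, 0.27 and 0.21 in that order. The group was therefore most variable in the wild type TCDD arrays, which were also the only arrays deposited at a trimmed mean of 500. Between same-numbered arrays the median change under TCDD was 0.01, -0.33 and -0.16 in human AHR and -0.12, -0.03 and -0.82 in wild type. The Xist-high replicate 2 arrays coincide with this spread, and their part in it was not tested. Cyp1a1 read 125, 2518 and 64.9 in wild type TCDD replicates 1, 2 and 3, where the median deviation of the group was 0.002, 0.405 and -0.751. Any link of Cyp1a1 to this spread was not tested. Without both wild type replicate 2 arrays, 29 of 33 genes lay below 0 under TCDD in wild type, with a median of -0.46. Without both wild type replicate 3 arrays, a setting chosen after the data had been seen, 24 of 33 lay below 0 with a median of -0.08.

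Most of the group moved together from array to array. After the group means were subtracted, the correlation of a gene with the mean of the other genes of the list had a median of 0.85 over the 12 arrays, and 19 of 33 genes exceeded 0.8, against 3.27% of genes outside the list and pathway. Parp9 (0.97), Parp14 (0.97), Dtx3l (0.95) and Ifit1 (0.94) followed the mean most closely. Irf9 (0.24), Rsad2 (-0.15), Oasl1 (-0.31) and Cxcl10 (-0.47) did not follow it. These correlations describe 12 arrays that share their group structure, and they depended on the wild type TCDD arrays. With those left out, 5 of 33 genes exceeded 0.8 over 9 arrays (1.45% of other genes) and the median was 0.58. Over the 6 human AHR arrays alone 2 of 33 did (3.75% of other genes), with a median of 0.24. Over the 6 wild type arrays 22 of 33 did (13% of other genes), with a median of 0.93.

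The 10 genes outside the interferon lists most like the mean of the group were Nfix (0.99), Pls1, Wdfy3, Xpo5, Mgat1, Fbxo9, Hpgd, Zfp810, Thrap3 and Btbd6 (0.96). Nfix, a transcription factor, read 456, 405 and 436 in human AHR TCDD arrays, against 422, 422 and 442 in vehicle arrays, and 562, 686 and 338 in wild type TCDD arrays, against 508, 633 and 466 in vehicle arrays. It had the same high replicate 2 and low replicate 3 among wild type TCDD arrays. In the interferon pathway the closest genes were Ifi47 (0.98), Trim21 (0.98) and Rnf213 (0.97).

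The rest of the interferon pathway was followed in a further list of 76 genes, of which 68 were measured. None of the 68 passed the adjusted test of limma in any comparison, and at an unadjusted p under 0.05 under TCDD 1 was lower in human AHR (1.48% of all genes) and 2 were lower in wild type (1.19% of all genes). None was higher by that measure in human AHR, against 1.42% of all genes, or in wild type, against 3%. Under TCDD 52 of 68 lay below 0 in human AHR (median -0.09), against 53.1% of all genes, and 45 of 68 in wild type (median -0.19), against 44.3%. The interferons themselves were dim, with Ifnb1 from 4.0 to 30.5, Ifna1 from 0.900 to 24, Ifna2 from 1.5 to 44.0, Ifna4 from 0.80 to 14.8 and Ifng from 0.600 to 10.4 over all arrays.

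Of the 6 receptor genes, 5 lay below 0 under TCDD in human AHR hepatocytes and 6 did in wild type hepatocytes. Ifngr2, the signalling chain of the interferon gamma receptor, had a log2 change of -0.06 in human AHR and -0.46 in wild type (SE 0.19 each, unadjusted p = 0.029 in wild type, limma adjusted p = 0.966). Ifnar1 and Ifnar2, the type I receptor chains, lay at 0.01 and -0.01 in human AHR and at -0.20 and -0.11 in wild type. Ifngr1 lay at -0.04 in human AHR and -0.40 in wild type. The type III receptor chains Ifnlr1 and Il10rb lay at -0.12 and -0.21 in human AHR and at -0.63 and -0.55 in wild type. Of the kinases, Jak1 lay at 0.12 in human AHR and 0.07 in wild type, Jak2 at -0.18 and -0.08, and Tyk2 at -0.07 and 0.18. Stat3 lay at -0.23 in human AHR and 0.22 in wild type (SE 0.15 each), a difference of -0.45 (95% confidence interval -0.89 to -0.01, unadjusted p = 0.0461, limma adjusted p = 0.998).

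Among sensors and relays, Dhx58 (LGP2) was lower in all 6 same-numbered pairs. It read 287, 200.5 and 206 in human AHR TCDD arrays, against 310.3, 276 and 280.5 in vehicle arrays, and 187, 309.8 and 72.3 in wild type TCDD arrays, against 275, 410.4 and 241 in vehicle arrays. Its log2 change was -0.32 in human AHR and -0.81 in wild type (SE 0.36 each, unadjusted p = 0.0401 in wild type, limma adjusted p = 0.966). Ticam1 (TRIF), the adaptor of Tlr3, read 102, 67.9 and 99.3 in human AHR TCDD arrays, against 160.3, 124 and 103 in vehicle arrays, and 89.7, 91.9 and 82.7 in wild type TCDD arrays, against 100.9, 105.9 and 118.5 in vehicle arrays. The Ticam1 groups did not overlap in either genotype, and its log2 change averaged -0.35 (SE 0.14, unadjusted p = 0.0246, limma adjusted p = 0.997). In all, 9 of the 68 pathway genes were lower in all 6 pairs: Dhx58, Tlr3, Ticam1, Ifitm3, Psmb9, Samd9l, Irgm2, Gbp7 and Sp100. That is 13.2% of the list, against 1.96% of all genes, and 0 of the 68 were higher in all 6 pairs, against 2.19% of all genes.

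Between genotypes, Sp100, a nuclear body protein, was higher in human AHR than in wild type hepatocytes under both treatments, by 0.46 under TCDD (unadjusted p = 0.0375, limma adjusted p = 1) and 0.45 under vehicle (unadjusted p = 0.0416, limma adjusted p = 0.965), SE 0.20 each. Sp100 ran from 2.7 to 25.9 over all arrays. Under vehicle the human AHR minus wild type difference was 1.09 (SE 0.48, limma adjusted p = 0.965) for Socs3, the feedback inhibitor of JAK signalling, and 0.87 (SE 0.38, limma adjusted p = 0.965) for the chemokine Ccl5. Under TCDD it was -0.55 (SE 0.24, limma adjusted p = 1) for Sting1, the adaptor of DNA sensing, which read 18.2 or less on all arrays, and -0.59 (SE 0.26, limma adjusted p = 1) for the dim Ifna1. The TCDD effect on Ifna1, human AHR minus wild type, was -0.90 (95% confidence interval -1.71 to -0.09, limma adjusted p = 0.998), and that on Ifng was -0.52 (-1.06 to 0.01, limma adjusted p = 0.998). All 4 of these genes, Sp100, Sting1, Ifna1 and Ifng, were at signals near the offset of 16, and no difference passed.

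The arrays carried the hepatocyte label and 5 of 6 hepatocyte markers, Alb and Ttr among them, were measured. Their sums ran from 47247 to 56842 in human AHR TCDD arrays and from 46111 to 56911 in human AHR vehicle arrays. In wild type they ran from 46048 to 59310 under TCDD and from 41848 to 52578 under vehicle. The highest sum of the 12 was in wild type TCDD replicate 3 and the lowest in wild type vehicle replicate 2. Macrophages also express interferon-stimulated genes, and Kupffer cell markers differed between arrays. C1qa and Marco were picked out after their values had been seen. C1qa, a complement subunit made by macrophages, read 10.8, 169.7 and 281 in human AHR TCDD arrays, against 4.20, 183 and 312 in vehicle arrays, and at most 25.8 in any wild type array. All 9 listed Kupffer cell and macrophage markers were measured. Their summed signal ran from 2896 to 5216 in human AHR TCDD arrays, from 3105 to 5657 in human AHR vehicle arrays, from 3254 to 5079 in wild type TCDD arrays and from 3167 to 4256 in wild type vehicle arrays. Marco, the macrophage scavenger receptor, had the same order, at 4.50, 23.4 and 122 in human AHR TCDD arrays, against 3.10, 43.4 and 102 in vehicle arrays, and at most 2.80 in wild type. Not every marker of the list was lower in wild type. Cd68, a lysosomal protein of macrophages, read 1712, 2904 and 3183 in human AHR TCDD arrays, against 1940, 2798 and 3451 in vehicle arrays, and 1763, 2837 and 4041 in wild type TCDD arrays, against 1822, 3315 and 2039 in vehicle arrays. Cd68 thus had the same replicate order in human AHR, but its highest signal of the 12 was in wild type TCDD replicate 3. Cd14, a co-receptor for lipopolysaccharide, read 1045, 1596 and 1220.2 in human AHR TCDD arrays, against 1053, 1417 and 1379 in vehicle arrays, and ran from 791 to 1380 in wild type, so it did not share the order of C1qa under either treatment. In those human AHR replicates 2 and 3 the median deviation of the interferon-stimulated genes was -0.27 and -0.09 under TCDD, against 0.11 and 0.07 under vehicle. The part of these markers in the results was not tested. Ptprc, the leukocyte marker, was at most 28.5 on any array. The 6 measured lymphocyte markers summed to 35.9 to 47.7 in human AHR TCDD arrays, against 24.6 to 61.7 in vehicle arrays, and to 60.0 to 83.1 in wild type TCDD arrays, against 25.7 to 36.5 in vehicle arrays. The wild type sums did not overlap, with TCDD arrays higher. Cd8a, a coreceptor of T cells, had a wild type log2 change of 1.04 (unadjusted p = 0.0111, limma adjusted p = 0.966) at signals of at most 41.7, and Cd79a, of the B cell receptor, one of 0.68 (unadjusted p = 0.0163, limma adjusted p = 0.966). Cd8a did not overlap, where 6.17% of all genes were wholly higher, and Cd79a overlapped at signals of at most 30.2. The remaining measured lymphocyte markers overlapped in wild type. Their log2 changes there were 0.03 for Cd3e, -0.09 for Cd3g, 0.25 for Nkg7 and 0.16 for Ms4a1. The 5 stellate cell and fibroblast markers summed to 145.1 to 185.7 in human AHR TCDD arrays, against 107.0 to 154.3 in vehicle arrays, and to 73.6 to 119.2 in wild type TCDD arrays, against 63.9 to 123.5 in vehicle arrays. One of them, Acta2, smooth muscle actin, was lower under TCDD without overlap in both genotypes. TCDD arrays lay wholly lower for 3.78% of all genes in human AHR and 2.82% in wild type. Acta2 had log2 changes of -1.15 in human AHR (unadjusted p = 0.00532, limma adjusted p = 1) and -0.65 in wild type (unadjusted p = 0.08, limma adjusted p = 0.966). Reln, of the same list, went the other way and was higher without overlap in both genotypes. TCDD arrays lay wholly higher for 3.34% of all genes in human AHR and 6.17% in wild type. The Reln log2 changes were 0.88 in human AHR (limma unadjusted p = 0.00382) and 0.66 in wild type (limma unadjusted p = 0.0208), and neither passed the adjusted test. The 5 endothelial markers summed to 114.2 to 174.8 in human AHR TCDD arrays, against 124.8 to 215.7 in vehicle arrays, and to 117.3 to 141.8 in wild type TCDD arrays, against 115.0 to 119.4 in vehicle arrays. The sums of the 2 cholangiocyte markers did not overlap in wild type, at 522.0 to 552.7 under TCDD, against 634.7 to 872.4 under vehicle. Krt19, the brighter of the 2, was lower there without overlap, as were 2.82% of all genes. Epcam overlapped in wild type, with a log2 change of -0.05. In human AHR the sums overlapped, at 421.5 to 1041.1 under TCDD, against 409.3 to 1251.5 under vehicle. The part of these markers in the results was not tested either.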

How the data were processed

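RNA of primary hepatocytes was measured on 12 arrays with 45101 probe sets. The authors deposited 1 linear intensity for each probe set and array. Their processing notes name the PLIER algorithm (Affymetrix Expression Console 1.1), and the design text names SAM as the test. Yet the 2% trimmed mean of the deposited intensity was 500 for wild type TCDD arrays and 150 for all others, as after global scaling of each array, and which step set this is not settled here. All arrays were brought to 150.

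Control probe sets (64) were removed. Of the rest, 34945 named 1 symbol, 932 several, and 9160 were not listed in the annotation. The brightest probe set stood for each of 18193 genes. Group means of log2(intensity + 16) were estimated with limma 3.58.1 (R 4.3.3) from the 12 arrays, leaving 8 residual degrees of freedom, with trended eBayes and Benjamini-Hochberg adjustment over all genes. The fit was tested on simulated data. SAM was repeated over all 20 relabellings.

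Array values are given for the 2 brightest genes of each role and the 3 with the smallest unadjusted p in each comparison. Ifit1, Gbp2 and C1qa, and second probe sets, were added after values were seen. The members, lists and rule were chosen with earlier results of these data known.

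Same-numbered TCDD and vehicle arrays correlated at 0.24, 0.27 and 0.19 in human AHR and 0.25, 0.51 and 0.05 in wild type (deviations from group means). By the criterion that every pair exceed 0.1, the numbers were taken to pair human AHR arrays, although the design text gives 1 array for each mouse. In wild type replicates 1 and 2 exceeded it and replicate 3 did not, so same-numbered wild type pairs only describe. Wild type vehicle replicate 1 also correlated with TCDD replicate 3, at 0.28. Differently numbered human AHR arrays correlated at -0.04 or lower. Every SE and confidence interval above comes from the fit without pairing, and the replicate block was kept as an alternative.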

Additional observations from a re-analysis of the deposited data

How the results depend on the processing

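The count of interferon-stimulated genes passing the adjusted threshold was 0 in all 6 comparisons under every setting run: offsets of 1 and 50, quantile normalization, a shared median, no dimmest 40%, no trend, array weights, only the arrays compared, other probe set rules, the replicate block and each array left out. Over all genes limma called at most 6 wherever that count was kept, and 0 in many of the fits. SAM also called 0 interferon-stimulated genes in the 4 comparisons of 2 groups, and from 0 to 7 of all genes. So few calls over all genes mean that these counts of 0 say nothing particular about the list. The smallest adjusted p among the interferon-stimulated genes was 0.454 (Ifit1, wild type, without TCDD replicate 2). Leaving out arrays one at a time moved the median over -0.24 to -0.12 for TCDD in human AHR, -0.52 to 0.031 in wild type (lowest without TCDD replicate 2, highest without TCDD replicate 3), -0.40 to -0.08 for their average, -0.23 to 0.38 for the difference, -0.20 to 0.03 between genotypes under vehicle and -0.27 to 0.37 between them under TCDD. Without both wild type replicate 3 arrays, added after the data had been seen, the last was -0.27. With the replicate block 0 genes passed and the medians were again -0.18 in human AHR and -0.30 in wild type, while genes lower at an unadjusted p under 0.05 came to 2 in human AHR and 10 in wild type, against 0 and 1 without it. For the average of both genotypes they came to 10, against 2 without the block. The labels do not pair arrays by number. The correlation criterion pairs those of human AHR, and there the block changed no adjusted call of the group. A shared median moved the median of all genes for the difference to 0.07 and that of the group to 0.25. SAM and the fit to only the arrays compared were not run for the average and the difference, which use all arrays. Signals near the offset, as in Mx1 and Oas2, limit what can be seen of those genes.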

Other observations

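The probe set shared by Isg15 and Gm9706, which entered no comparison and was chosen after its values were seen, read 1236, 959 and 630.2 in human AHR TCDD arrays, against 1252, 1367 and 1068 in human AHR vehicle arrays. In wild type it read 920.4, 1331 and 612 under TCDD, against 1175, 1662 and 961 under vehicle. It was lower under TCDD in each same-numbered pair, and the share of its signal that comes from either gene is unknown.

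Hpgd, the prostaglandin-degrading enzyme among the 10 genes most like the group, read 332, 313 and 331 in human AHR TCDD arrays, against 106, 129 and 98.3 in human AHR vehicle arrays. In wild type Hpgd read 176, 709.7 and 62.3 under TCDD, against 126, 235 and 75.1 under vehicle. Its likeness was computed after group means were subtracted, so it does not describe the TCDD difference.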
